A study of Mus musculus with 10 samples.

Results

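The p120 catenin family, also called the delta-catenins, was examined through its 4 mouse genes, Arvcf, Ctnnd1, Ctnnd2 and Pkp4. Members were chosen by gene symbol, and the family was picked with the response of the Arvcf microexon to Qk knockdown already known, so every difference between the N2A groups is given for these genes as a description and without a p-value. The 4 genes, of 26264 gene symbols in the table, held 251 of the 661162 splicing events measured. Of the 251 events, 60 lay in Arvcf, 42 in Ctnnd1, 64 in Ctnnd2 and 85 in Pkp4.

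Polyadenylated RNA was sequenced from a mouse neuroblastoma cell line, Neuro-2a (N2A), and from mouse neurons differentiated in vitro. N2A cells were transfected with siRNAs directed at Qk (siQk, n = 3) or with non-targeting siRNAs (siNT, n = 3), each pool at 40 nM, and RNA was taken at 72 h. The neurons, of glutamatergic type and derived from embryonic stem cells, were on day 7 in culture and received 100 uM cycloheximide over 12 h (n = 2) or were left untreated (n = 2). No genotype, sex or age was given for either source, both siRNA groups went through the same transfection, and each N2A sample comes from that 1 line. Qk encodes Quaking, an RNA-binding protein that acts on splicing, and cycloheximide stops translation and with it the nonsense-mediated decay of transcripts.

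Proteins of this family carry a central row of armadillo repeats that binds the juxtamembrane part of classical cadherins, and they hold cadherins at the cell surface. Ctnnd1 encodes p120 catenin itself. Arvcf is named after the human gene, which lies in the region deleted in velo-cardio-facial syndrome. Ctnnd2 encodes delta-catenin, known mainly from neurons, and Pkp4 encodes p0071, also called plakophilin 4. Human p120 catenin has alternative coding exons that the literature letters A, B and C, of which exon C lies in the armadillo domain and is known from brain and exon B holds a nuclear export signal. The deposited tables do not use these letters.

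On the mm10 assembly with the GENCODE M21 annotation, Arvcf lies on the plus strand at chr16:18348182-18407076, Ctnnd1 on the minus strand at chr2:84600071-84650765, Ctnnd2 on the plus strand at chr15:30172593-31029341 and Pkp4 on the plus strand at chr2:59160850-59355208. Proteins translated from the annotated transcript with the longest coding sequence had 962 residues for Arvcf, 967 for Ctnnd1, 1246 for Ctnnd2 and 1190 for Pkp4. Aligned end to end, Arvcf and Ctnnd1 were identical at 51.8% of aligned residues and Ctnnd2 and Pkp4 at 53.9%, while the other 4 pairs lay between 38.1% and 41.5%. By sequence the family thus splits into the pair Arvcf and Ctnnd1 and the pair Ctnnd2 and Pkp4.

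The same split holds for a microexon, a cassette exon of 3 to 27 nt. In all 4 transcripts an exon of 184 nt is followed by one of 118 nt and then by an exon of 154 to 192 nt. In Arvcf and Ctnnd1 an 18 nt exon comes next, whereas the transcripts used for Ctnnd2 and Pkp4 join directly to the following exon. The junctions at this place in the exon order are printed to show the sequence around the 18 nt. Each run gives 30 nt of the exon before, the microexon in capitals where the transcript has one, and 30 nt of the exon after, 5′ to 3′ on the coding strand, from the GENCODE M21 transcript with the longest coding sequence of each gene, Arvcf-201, Ctnnd1-220, Ctnnd2-201 and Pkp4-202. The junctions were matched by the order of exons and not by alignment. Whether the 18 nt have a counterpart within a neighbouring exon of Ctnnd2 or Pkp4 was not tested.
Arvcf, microexon at chr16:18400781-18400798, plus strand: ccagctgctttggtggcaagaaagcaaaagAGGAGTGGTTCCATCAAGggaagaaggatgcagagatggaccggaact
Ctnnd1, microexon at chr2:84612532-84612549, minus strand: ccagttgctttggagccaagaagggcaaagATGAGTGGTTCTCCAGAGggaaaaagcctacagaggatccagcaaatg
Ctnnd2, no microexon: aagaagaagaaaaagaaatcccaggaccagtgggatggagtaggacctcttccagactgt
Pkp4, no microexon: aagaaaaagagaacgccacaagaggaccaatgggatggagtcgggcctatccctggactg

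The pair of 18 nt exons can be compared base by base, with the longest shared run in capitals.
Arvcf, 18 nt exon: agGAGTGGTTCcatcaag
Ctnnd1, 18 nt exon: atGAGTGGTTCtccagag
They were identical at 12 of 18 bases, and the shared run covered 9 bases, from position 3 to position 11 counted from the 5′ end. Both have a GC content of 50.0%, are annotated in the same reading phase, and have a length that is a multiple of 3. The Arvcf exon is coding in 3 of 8 annotated coding transcripts of its gene and the Ctnnd1 exon in 10 of 24.

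Each splicing event is given as percent spliced in (PSI), the percentage of a gene's transcripts with the exon included, the intron retained or the splice site used, and values with ± are the mean and SD of 3 samples. The knockdown was checked first. Qk, measured as the summed reads of its exon events scaled to the total of such reads in the library (counts-per-million units, CPM), stood at 8.18, 12.3 and 13 CPM in siQk, against 90.8, 82.9 and 82.5 CPM in siNT. The mean was 11.2 ± 2.60 CPM in siQk and 85.4 ± 4.68 CPM in siNT (SD, n = 3 each), so 13.1% remained. Its log2 fold change on the log2(CPM + 0.5) scale was -2.91 (SE 0.16), a call in the limma fit over all genes. Every siQk library was thus low in Qk. The libraries held from 26587151 to 80455753 exon-event reads. Of 6 neuronal markers 5 were in the table and 4 reached 1 CPM in every sample. Their summed level was 838 to 874 CPM in siQk and 754 to 829 CPM in siNT. Most of that sum was Stmn2, at 576, 589 and 604 CPM in siQk, against 449, 546 and 473 CPM in siNT. Map2 also lay higher in siQk with no overlap, while Snap25 and Syp lay lower with no overlap. The sum is thus no measure of a shared change of these markers. The 3 epithelial markers summed to at most 0.414 CPM in siQk and 0.423 CPM in siNT. The progenitor markers Nes, Sox2 and Pax6, of which 2 were in the table, summed to 25.4 to 29.5 CPM in siQk and 29.5 to 36.3 CPM in siNT, and the 4 glial markers to 3.35 to 5.12 CPM in siQk and 4.09 to 4.52 CPM in siNT.

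Not all of the 251 family events could be read. Ctnnd2 had 0 reads in all of its 64 events in every N2A sample, so none of its exons has a PSI in these cells. Of the 251 events, 185 had any read and 177 had at least 10 in each sample. Of those 177, 143 had a mean PSI below 2 or above 98 and so lay near 0 or 100, and 34 were tested. The 34 are 12 cassette exons, 11 introns, 9 splice sites of the alternative 3′ class and 2 of the alternative 5′ class. An event was called where the adjusted p of limma, fitted over all events of its class, was under 0.05 and mean PSI differed by at least 10 percentage points. Among the 12 tested exons of the family 1 was called, where 1.18% of all tested exons were called. None of the 11 introns was called, where 0.113% of all tested introns were, and none of the 9 alternative 3′ sites or the 2 alternative 5′ sites, where 0.101% and 0.107% of all tested sites of those classes were called. Since the family was picked with these differences known, nothing is read from the counts.

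The called exon was the 18 nt microexon of Arvcf. Its PSI was 64.88, 52.63 and 56.24% in siQk, against 38.77, 32.98 and 34.79% in siNT. All 3 siQk samples lay above all 3 siNT samples, and the mean was 57.9 ± 6.29% in siQk and 35.5 ± 2.96% in siNT (SD, n = 3 each), a difference of 22.4 percentage points. The upward calls among tested microexons made up 6.10% of the 410 that were tested. Summed over samples, the inclusion reads of the exon numbered 323 of 561 in siQk and 317 of 889 in siNT, with 107 to 426 reads behind a single PSI. The size of the difference did not hang on 1 library: without each of the 6 samples in turn it ran from 18.9 to 25.0 points. The call itself was lost in each of those 6 fits, and also when PSI took the place of the log2 read ratio in limma.

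The 18 nt microexon of Ctnnd1 was near full inclusion in both groups. Its PSI was 98.28, 98.07 and 97.98% in siQk, against 98.17, 99.47 and 99.41% in siNT. The groups overlap, with a mean of 98.1 ± 0.154% in siQk and 99.0 ± 0.734% in siNT, a difference of -0.907 points over 165 to 536 reads per sample. Because mean PSI was above 98 the exon was not tested, and the difference between its response and that of the Arvcf exon was not tested either. In siNT the Arvcf exon was thus included in a minority of transcripts and its Ctnnd1 counterpart in nearly all.

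**Figure D1:**
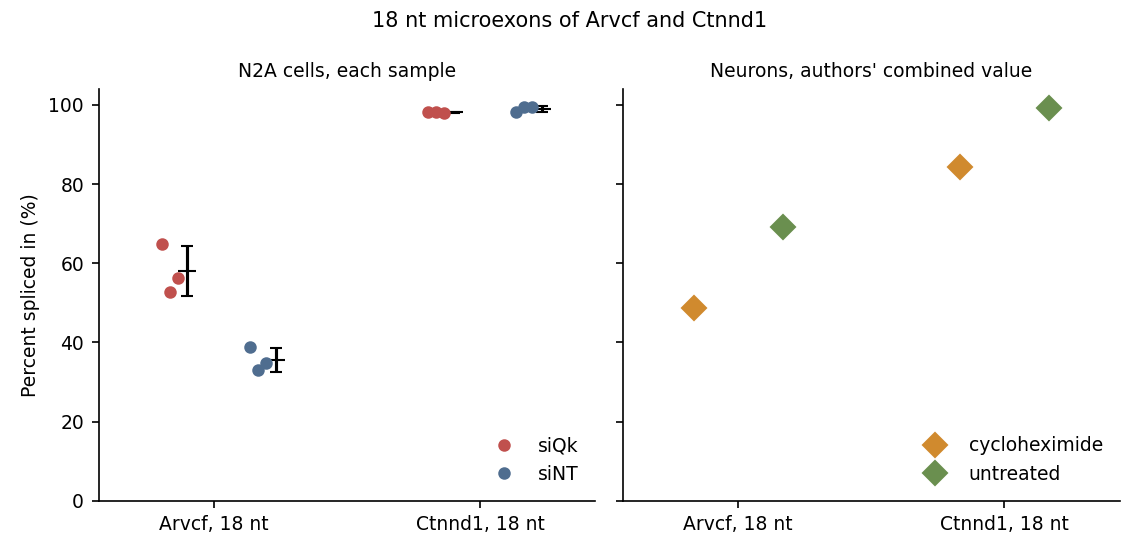
PSI (percent) of the 18 nt microexons of Arvcf and Ctnnd1, by sample for siQk and siNT N2A cells (left, points; bars are mean ± SD, n = 3) and as the authors' combined value for cycloheximide and untreated neurons (right, diamonds, no error). The Arvcf exon lies between 52.63 and 64.88% in siQk and between 32.98 and 38.77% in siNT, while the Ctnnd1 exon is above 97% in every N2A sample.

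Ctnnd1 has a further pair of microexons in the table, of 6 nt at chr2:84648161-84648166 and of 5 nt at chr2:84634579-84634583, neither of which has its ends in GENCODE M21. Both had 0 inclusion reads, over 1735 reads in siQk and 1758 in siNT that skip them. For either exon 3 reads over the group would be a PSI of 0.173% in siQk and 0.171% in siNT, which is the limit that a count of 0 allows, for counting error only. Both exons share the same skipping reads.

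Among the 409 other tested microexons, those nearest to the Arvcf exon in PSI over the 6 samples were found by Euclidean distance. Closest was a 24 nt exon of Gnas, which encodes the stimulatory G protein alpha subunit, at a distance of 13.2 PSI points, with a mean of 54.7% in siQk and 41.4% in siNT. Next came a 15 nt exon of Dctn1, a subunit of dynactin, at 14.2 points (55.2% in siQk, 34.9% in siNT), and a 6 nt exon of Pacsin2, a membrane-bending adaptor, at 16.7 points (60.4% in siQk, 44.4% in siNT). The likeness is over 6 samples that share libraries and groups.

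In the authors' deposited list of neural microexons, with replicates combined, the Arvcf exon had 57.1% in siQk and 35.6% in siNT, and the authors placed it among the 41 exons that they class as repressed by Qk. The same deposited table gave the Ctnnd1 exon 97.8% in siQk and 99.0% in siNT and classed it as unchanged. In that table neither exon has an ACTAAY motif assigned on either side, Y being C or T. These are the same libraries as above and no further evidence.

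In neurons both 18 nt exons were less included with cycloheximide. This direction takes the first condition as untreated, an order read only from the name of the authors' deposited table. The authors' deposited table gave the Arvcf exon 48.6% with cycloheximide and 69.1% untreated, a difference of -20.5 points. For the Ctnnd1 exon the authors' deposited table gave 84.4% with cycloheximide and 99.2% untreated, a difference of -14.8 points. Both differences carried a probability of 1.0 in the authors' deposited table, and both exons are in the authors' filtered set. So 2 of the 3 family rows were among those lower by at least 10 points at a probability of at least 0.9, where 7.17% of all 2469 rows were. The third row was a 5 nt exon of Ctnnd2 at chr15:31022079-31022083, which the authors' deposited table gave at 0.289% with cycloheximide and 0.430% untreated, with a probability of 0.579. From 0.430% it could not fall by 10 points, and it is also among the 2469 rows behind the share of 7.17%. Pkp4 had no row. Replicates were combined in that table and its depth is unknown, so these values have no error and no test over the 2 samples per condition. Over all rows of the authors' deposited table the median difference was -0.061 points, with 177 rows lower and 55 higher past the same limits.

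Among the other tested exons of Arvcf, both were mostly included. The 120 nt exon at chr16:18405102-18405221, partly coding in 6 of 8 coding transcripts, had 94.48, 98.99 and 96.38% in siQk, against 91.24, 93.19 and 93.80% in siNT. Its groups do not overlap, with a mean 3.87 points higher in siQk. The 231 nt exon at chr16:18389160-18389390, partly coding in 4 of 8, averaged 95.8 ± 1.98% in siQk and 93.7 ± 0.717% in siNT, and its groups overlap. The introns beside the microexon showed no gap between groups: the 527 nt intron upstream of it was retained at 8.20 ± 0.949% in siQk and 6.50 ± 1.10% in siNT, and the 768 nt intron downstream at 3.57 ± 0.649% in siQk and 4.98 ± 1.88% in siNT. Over the 9 tested introns of Arvcf mean retention ran from 2.31 to 9.16% in siQk and from 2.01 to 8.76% in siNT, and the differences from -1.53 to 1.70 points. The 556 nt intron at chr16:18404546-18405101 was the 1 of the 9 whose groups do not overlap, where 10.4% of all tested introns have such groups. It was retained at 3.06, 3.04 and 1.91% in siQk, against 4.76, 4.73 and 3.11% in siNT, so the gap lies between 3.06% in siQk and 3.11% in siNT. The alternative 3′ splice site of Arvcf with the larger difference was used at 2.41 ± 0.958% in siQk and 1.90 ± 1.00% in siNT, with groups that overlap.

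Near the 3′ end of Ctnnd1 an alternative exon and the intron around it were higher in siQk. The exon, of 87 nt and at chr2:84603188-84603274, coding in 9 of 24 coding transcripts, was included at 7.58, 3.84 and 5.53% in siQk, against 0.83, 0.63 and 1.01% in siNT. The groups do not overlap, with means of 5.65 ± 1.87% in siQk and 0.823 ± 0.190% in siNT. The 745 nt intron around it, at chr2:84602904-84603648, was retained at 8.57, 10.04 and 6.96% in siQk, against 3.53, 1.80 and 1.64% in siNT. Its groups do not overlap either, with means of 8.52 ± 1.54% in siQk and 2.32 ± 1.05% in siNT. Neither event was called, since their differences of 4.83 and 6.20 points were under the 10 that a call needs. The exon lies inside the intron, so the pair of events shares sequence and is not independent.

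A 63 nt exon, the next alternative coding exon towards the 5′ end, was included in most transcripts. Found at chr2:84605184-84605246 and coding in 18 of 24 coding transcripts, it had 73.08, 71.19 and 67.10% in siQk, against 65.84, 65.95 and 65.89% in siNT. The siNT samples were nearly equal and the siQk samples lay above them, by 4.56 points on the mean. The alternative exons of 87 and 63 nt are printed because they are the 2 coding exons of Ctnnd1 whose groups do not overlap, each 5′ to 3′ on the minus strand of mm10 from GENCODE M21 transcripts.
Ctnnd1, 87 nt exon: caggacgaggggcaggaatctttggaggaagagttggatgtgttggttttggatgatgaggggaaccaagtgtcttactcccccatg
Ctnnd1, 63 nt exon: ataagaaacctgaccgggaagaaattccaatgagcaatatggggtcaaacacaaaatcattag

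**Figure D2:**
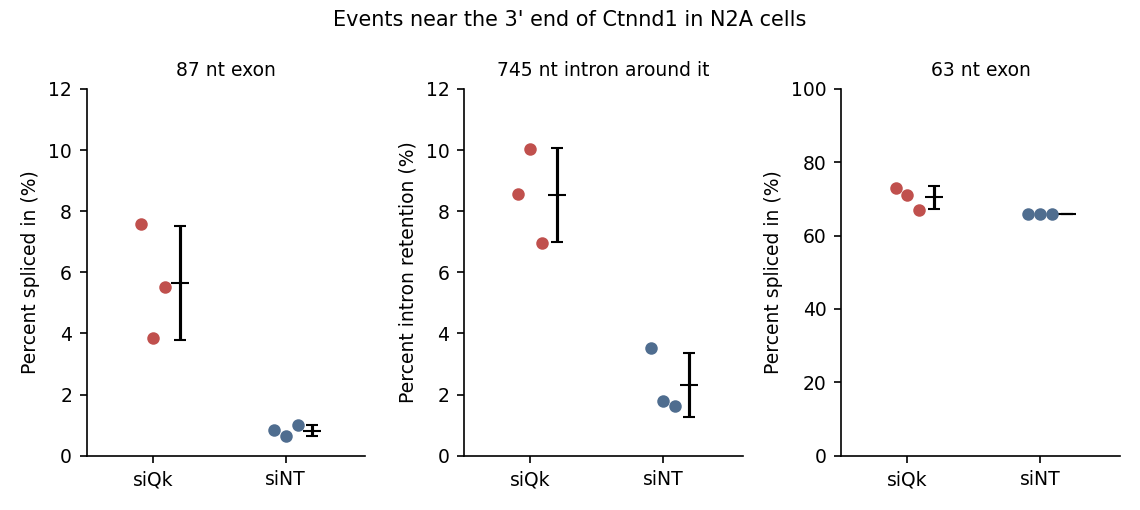
PSI or intron retention (percent, axes of different height) of the 87 nt exon, the 745 nt intron that contains it and the 63 nt exon of Ctnnd1, by sample for siQk and siNT, with bars for mean ± SD (n = 3). In all 3 panels the siQk samples lie above the siNT samples, at means of 5.65 against 0.823%, 8.52 against 2.32% and 70.5 against 65.9%.

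Further towards the 5′ end of Ctnnd1 a 118 nt exon at chr2:84626020-84626137 was less included in siQk. It had 8.63, 4.83 and 6.02% in siQk, against 11.59, 10.17 and 12.76% in siNT, and the groups do not overlap. The exon is part of 9 coding transcripts and holds coding sequence in none of them, so it is untranslated there. The 180 nt exon of Ctnnd1, partly coding in 7 of 24 coding transcripts, averaged 93.4 ± 2.15% in siQk and 93.6 ± 2.36% in siNT, a difference well within the spread. An alternative 3′ site of Ctnnd1 with 3 nt between its forms was used at 10.2 ± 3.31% in siQk and 10.2 ± 1.04% in siNT. Depth behind these Ctnnd1 exons ran from 203 reads for the 87 nt exon to 1904 reads for the 180 nt exon.

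Pkp4 had 5 tested exons, none called. The most evenly divided was a 129 nt exon at chr2:59350494-59350622, coding in 2 of 5 coding transcripts, with 46.44, 56.15 and 59.53% in siQk, against 51.54, 53.85 and 62.22% in siNT. Samples of both groups are spread over the same range. A 113 nt exon at chr2:59266388-59266500 had 83.79, 80.63 and 84.38% in siQk, against 87.56, 89.54 and 87.28% in siNT, so that all siQk samples lay below all siNT samples by a mean of -5.19 points. A 74 nt exon at chr2:59352262-59352335 had 87.32, 93.28 and 88.27% in siQk, against 86.35, 83.54 and 87.23% in siNT, and its groups are apart only by the small gap between 87.32% in siQk and 87.23% in siNT. The remaining exons overlap between groups: the 137 nt exon averaged 88.8 ± 3.02% in siQk and 86.6 ± 1.50% in siNT, and the 35 nt exon 77.6 ± 3.57% in siQk and 80.3 ± 0.578% in siNT. The exons of 35, 74, 113 and 137 nt have lengths that are no multiple of 3, unlike the 129 nt exon.

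Splice-site choice in Pkp4 overlapped between groups. An alternative 5′ site with 6 nt between its forms, ending the exon that starts at chr2:59305136, had its shorter form at 39.64, 42.00 and 42.36% in siQk, against 35.66, 38.54 and 40.99% in siNT. The groups overlap, with a difference of 2.94 points. The alternative 3′ site with the largest difference of Pkp4 was used at 11.7 ± 1.93% in siQk and 10.5 ± 0.423% in siNT. The 12032 nt intron, the single tested intron of Pkp4, was retained at 2.70 ± 1.03% in siQk and 1.33 ± 0.962% in siNT, with overlap.

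**Figure D3:**
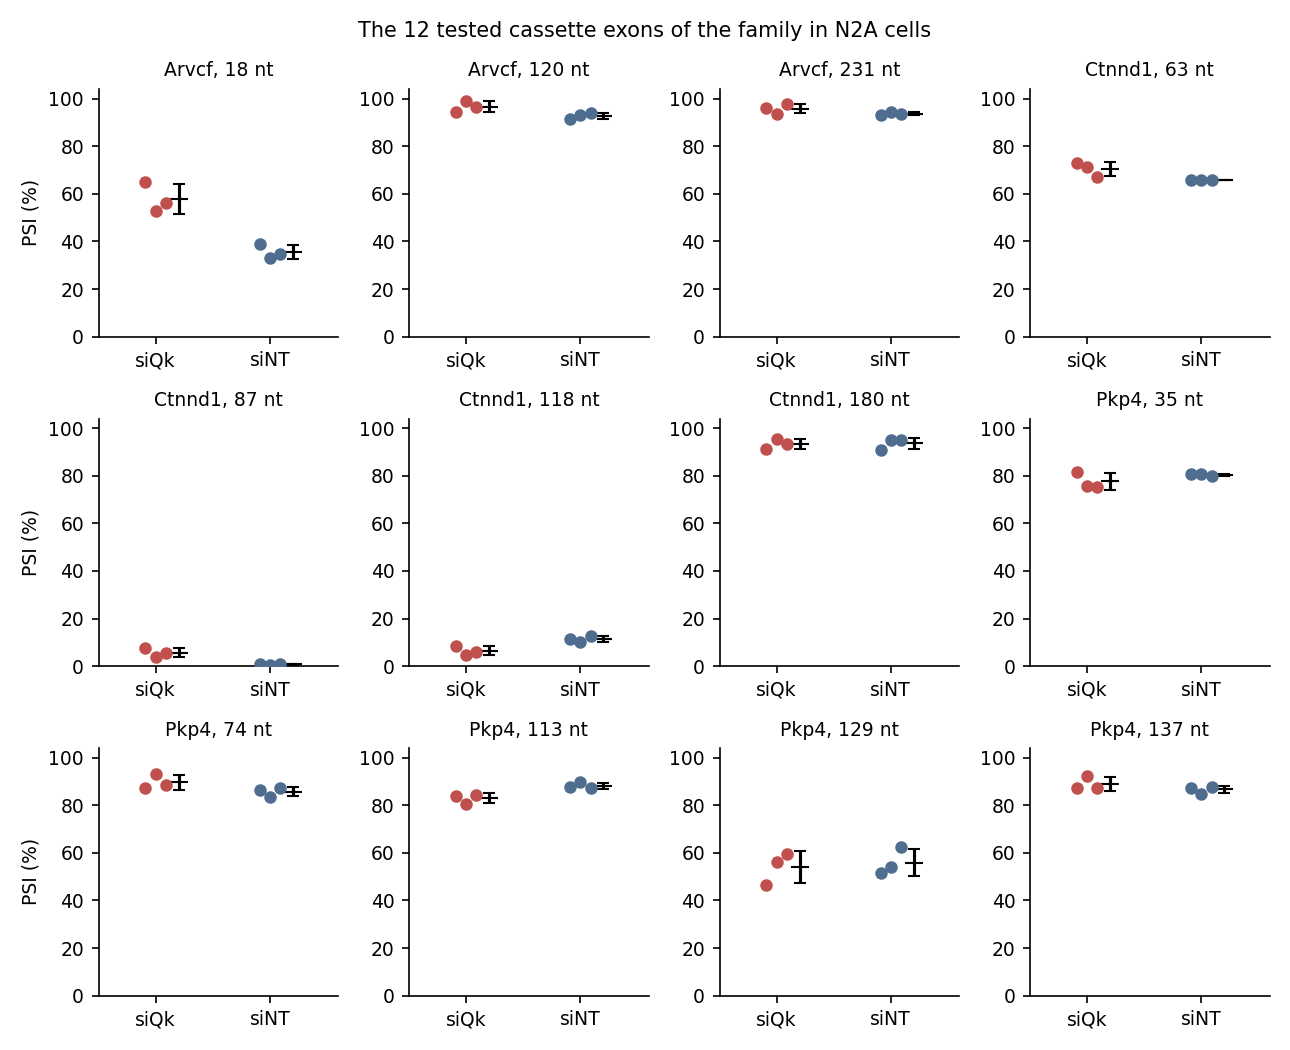
PSI (percent) of each of the 12 tested cassette exons of the family, 1 panel per exon, by sample for siQk and siNT, with bars for mean ± SD (n = 3). The 18 nt exon of Arvcf is the 1 exon with over 10 points between its means, and the 129 nt exon of Pkp4 shows the widest scatter within both groups.

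Among themselves the 12 tested exons fell on both sides of 0, with 7 higher and 5 lower in siQk. Their median difference was 2.19 points, beside 0.04 points over all 12930 tested exons, and their median absolute difference was 3.90 points, beside 1.82 points over all. In 7 of the 12, or 58.3%, the groups do not overlap, 5 higher and 2 lower in siQk, where 14.6% of all tested exons have groups that do not overlap. For introns this held for 2 of 11, where it held for 10.4% of all. The genes were picked with these differences known, and events of 1 gene share its reads, so the shares are given as a description. Of the 12 exons, 7 have a length that is a multiple of 3 and 11 hold some coding sequence in at least 1 transcript.

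**Figure D4:**
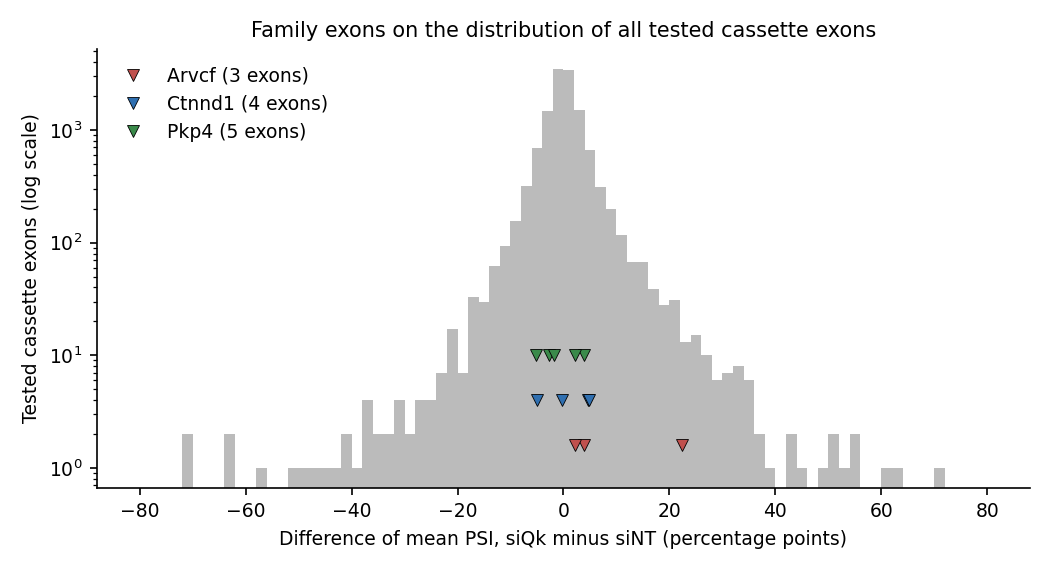
Difference of mean PSI (percentage points, siQk minus siNT) of the tested family exons (triangles, coloured by gene, height arbitrary) on the histogram of all 12930 tested cassette exons (grey, log axis of counts). The Arvcf microexon stands at 22.4 points, and the other 11 family exons lie between -5.19 and 4.83 points.

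Gene-level coverage of the family, measured as summed exon-event reads in CPM and comparable within a gene but not between genes, was called for none of the 3 genes with reads, where 4.21% of 10851 tested genes were called. Arvcf had 152, 165 and 162 CPM in siQk, against 166, 178 and 198 CPM in siNT. Its siQk samples lay below its siNT samples only by the small gap between 165 CPM in siQk and 166 CPM in siNT. The log2 fold change was -0.17 (SE 0.09). Ctnnd1 had 192, 227 and 216 CPM in siQk, against 199, 179 and 195 CPM in siNT, a log2 fold change of 0.15 (SE 0.09) with groups that overlap. Pkp4 had 251, 201 and 198 CPM in siQk, against 271, 234 and 243 CPM in siNT, a log2 fold change of -0.21 (SE 0.11), and its groups overlap as well. Ctnnd2 was at 0 CPM in all 6, a count of exon-event reads only. Whether the gene is transcribed in these cells was not tested by another measure. In such bulk samples fewer cells with a transcript and less of it per cell cannot be told apart.

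**Figure D5:**
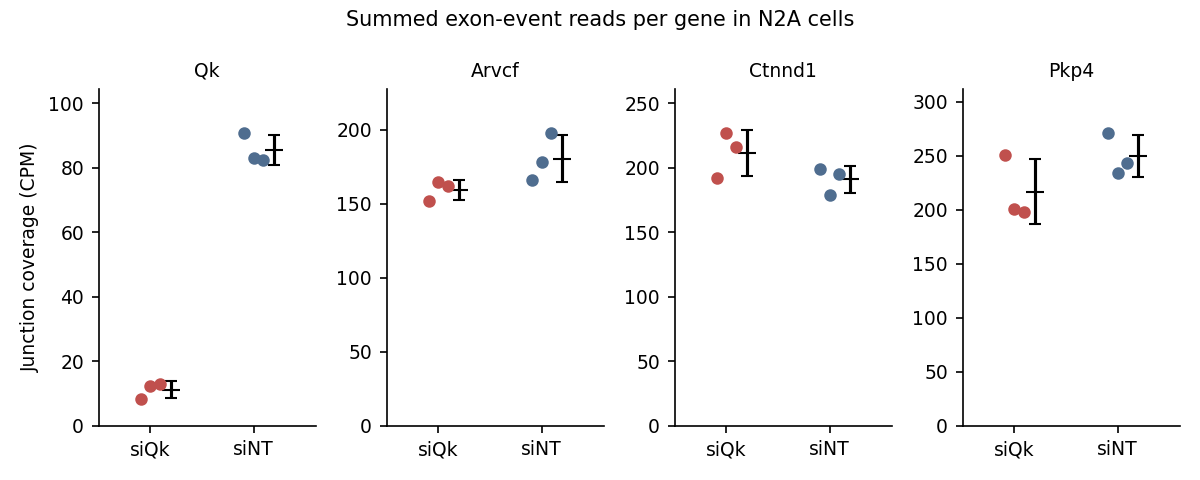
Summed exon-event reads (CPM) of Qk, Arvcf, Ctnnd1 and Pkp4, by sample for siQk and siNT, with bars for mean ± SD (n = 3) and an axis of its own from 0 for each gene. Qk falls to a mean of 11.2 CPM in siQk, against 85.4 CPM in siNT, while the 3 family genes keep between 86.9 and 111% of their siNT mean.

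The wider cadherin and catenin pathway was described with a list of 63 genes that encode cadherins, catenins, their scaffolds, kinases, phosphatases and GTPases, written with earlier results of these data known. In 34 of them 82 cassette exons were tested, of which 2 rose and 1 fell, or 3.66%, beside the 1.18% of all tested exons given above, and their median difference was 0.39 points. A 144 nt exon of Erbin, a scaffold protein of the LAP group, rose to 80.60, 81.21 and 81.29% in siQk, against 22.21, 26.69 and 29.91% in siNT. A 27 nt microexon of Kifc3, a minus-end-directed kinesin tied to adherens junctions, rose to 91.54, 94.80 and 96.78% in siQk, against 71.50, 65.45 and 69.32% in siNT. A 156 nt exon of Grip1, a scaffold of glutamate receptors, fell to 46.50, 60.16 and 60.70% in siQk, against 95.30, 97.58 and 98.14% in siNT. In none of these 3 exons do the groups overlap. None of the 3 was chosen independently of the data, as earlier results were known when the list was written.

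In coverage 48 genes of the list were tested, of which 3 rose and 2 fell, or 10.4%, where 4.21% of all tested genes were called, with a median log2 fold change of 0.02 over the list. The small GTPase Rac1 rose to 241 ± 14.7 CPM in siQk, against 181 ± 8.62 CPM in siNT, the phosphatase Ptpn1 to 128 ± 10.6 CPM in siQk, against 91.7 ± 9.42 CPM in siNT, and the phosphatase Ptpn6 to 4.88 ± 0.156 CPM in siQk, against 1.65 ± 0.282 CPM in siNT. The kinase Src fell to 28.2 ± 3.22 CPM in siQk, against 39.9 ± 1.56 CPM in siNT, and Grip1 to 191 ± 16.1 CPM in siQk, against 271 ± 7.77 CPM in siNT. Reads of the called 156 nt exon of Grip1 are part of that coverage, so its splicing and coverage results are not independent. The count of 5 was 1 without siQk 2, siQk 3, siNT 2 or siNT 3, each left out alone, and 2 without siNT 1.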

How the data were processed

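The members and gene lists were chosen with earlier results of these data known. For each event and N2A sample the authors deposited a PSI in percent and, beside it, another kind of value, a text quality cell with inclusion and exclusion reads. For microexons of neurons, and for a list of neural microexons, the authors deposited PSI as a fraction per condition with replicates combined, a probability as a fraction, and a difference and an entropy as a score. The build is mm10, per the submitters' processing notes, with the software not given in the sources used here. The first condition of the neuron table was taken as untreated from the table's name, and the direction of every neuron difference rests on that. Replicates are biological replicates per the labels, with no further detail. All PSI are printed in percent.

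Events with at least 10 reads in each N2A sample and a mean PSI from 2 to 98 entered limma 3.58.1 in R 4.3.3, as log2 of inclusion over exclusion reads, 0.5 added to both (robust, with a variance trend, two-sided, Benjamini-Hochberg within each event class). Calls needed an adjusted p under 0.05 and 10 percentage points. Exon-event reads summed per gene and divided by their library total (CPM) stood in for expression, and genes that averaged 20 reads or more were tested on log2(CPM + 0.5). A read can serve several events. The text names every microexon and every tested exon of the family, and per gene and class the tested intron or splice site with the largest difference. It also names the 3 nearest microexons and called genes of the pathway list. The introns beside the Arvcf microexon, and the 556 nt Arvcf intron whose groups do not overlap, were added after their values were seen. The 556 and 768 nt introns are not among the 19 named events whose alternatives are given below. Sequences came from GENCODE M21 transcripts through Biopython 1.88, and tables and figures from Python 3.11.15, pandas 2.3.3 and matplotlib 3.10.9. The fits were tested on simulated data. Pairs of libraries within a group differed by 1.49 to 2.93 times the sampling variance. Equal replicate numbers were not taken as pairs in the main fits. The correlations of their deviations were 0.139, 0.019 and 0.116, against -0.147 to 0.045 between unlike numbers. The values for numbers 1 and 3 were thus the highest, and whether equal numbers mark pairs was not tested. Fits with the replicate number as a block are therefore given below. Alternatives were single samples left out, a replicate block, other read and PSI limits, limma on PSI, other pseudocounts and other size factors.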

Additional observations from a re-analysis of the deposited data

How the results depend on the processing

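Of 242 alternative values for the 19 named family events, 227 kept their direction and their side of the threshold. Much of that count was fixed in advance. The replicate block, other read or PSI limits, limma on PSI, another pseudocount and calls by points alone left the difference of mean PSI unchanged. Direction could not reverse under these settings. All named events but the Arvcf microexon differed by 6.2 points or less in the main fit, too little for a call. The 7 values that lost a call were all of the Arvcf microexon. The count of called family exons was 1, and it was 0 in each fit without a single sample (lowest 0, highest 0) and 0 with limma on PSI. The fits that leave out a sample also called fewer exons over the whole table, 83 to 149 against 152. Direction reversed in 3 events that had small differences. Without single samples the difference of the 180 nt exon of Ctnnd1 (event MmuEX0013073) ran from -1.61 to 0.798 points (reversed at 0.798, 0.452 and 0.412), that of the 129 nt exon of Pkp4 (event MmuEX0035467) from -4.58 to 1.97 (reversed at 1.97 and 1.34), and that of the 3 nt alternative 3′ site of Ctnnd1 from -1.08 to 1.86 (reversed at 1.86 and 0.508). The last was also 0.289 points from summed reads. The cause was not tested. With the replicate number as a block, the pathway list had 5 called exons in place of 3, as it had 5 with limma on PSI, while the Arvcf microexon stayed called, and 161 exons were called over all. Only siQk 1 and siQk 3 correlated best with the siNT sample of their own number. In coverage, 1205 genes were called with the block, 457 without it and 43 to 863 without single samples, and of the pathway list 1 or 2 in 5 of those 6 fits and 3 with no filter on reads. No family gene was called in coverage under any of these settings. The 2 family microexons lower with cycloheximide were also counted under the 3 other limits tried. All 3 limits are looser than the main one, so they could add rows but drop none, and no stricter limit was tried. At its low PSI, the 87 nt exon of Ctnnd1 rests on few inclusion reads, 2.01 in siNT 2.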
